A study of Homo sapiens with 3 samples.

Results

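The genes described here differed from the empty vector control in the same direction in both K562 libraries that carried a form of EVI1. EVI1-WT and EVI1+18 were taken as one side, as the mean of their log2 scaled counts, and the single empty vector library as the other. Of 26334 genes in the tables, 10406 reached 50 counts on average across the 3 libraries. Among these, 3605 genes (34.6%) were higher in both EVI1 libraries and 3342 (32.1%) were lower in both, which makes 6947 members. The other 3459 genes lay above empty vector in one EVI1 library and below it in the other, or at the same value. Both ratios use the same empty vector library, so error in that library alone puts many genes on the same side. The number of members is therefore a description and no support for a common effect of the EVI1 forms.

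K562 is an established human line of chronic myelogenous leukaemia with erythroid features. Cells were infected with the retroviral vector pMYs-IG, which expresses its insert together with GFP, either empty, with 3xHA-EVI1-WT or with 3xHA-EVI1+18, where 3xHA is an epitope tag of 3 copies. The virus came from a packaging cell line, and cells positive for the vector's GFP were sorted 3 days after infection and grown on before RNA was taken. All cells of all groups therefore went through infection, sorting and GFP expression, and the labels call both EVI1 forms retrovirally overexpressed. The title of the series ties EVI1+18 to aberrant splicing of EVI1, and the labels do not say what its number counts. Each construct had 1 library. The gap between the EVI1 libraries is a gap between different constructs and not replicate error, so no test was run, no p-value is given, and both ratios share the same control library.

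EVI1 is a zinc finger transcription factor encoded by MECOM. It acts in blood stem cells, binds GATA-like DNA sites through its first zinc fingers and can recruit corepressors. Rearrangements that place MECOM under a foreign enhancer occur in a poor-risk group of acute myeloid leukaemias.

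The libraries held 17794423 to 20772348 counts, and 14116 to 14547 genes had at least 1 count. CPM below means counts relative to the library total, scaled with TMM, a method that sets libraries to a common level over most genes. Values in sets of 3 are always in the order empty vector, EVI1-WT, EVI1+18. An interval after a ratio is an exact 95% counting interval, which covers counting error only and not the spread between cultures. All 11 markers of K562 cells that were looked up, among them GATA1, TAL1 and the fetal globins HBG1 and HBG2, had a mean of at least 50 counts. CDKN2A and CDKN2B had 0 counts in every library. PTPRC was listed as a gene at or near 0 in K562, and its 568, 216 and 300 counts go against that. Of 6 defining lymphoid markers 5 had at most 20 counts in each library, as had 6 of 7 granulocyte and monocyte markers, 4 of 5 mast cell markers and 8 of 11 markers of packaging or stromal cells. In RNA from a whole culture, fewer cells of a kind and less RNA per cell cannot be told apart.

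MECOM itself was higher with both constructs, and by different amounts. It had 793, 1039 and 2012 counts, or 43.9, 56.9 and 97.3 CPM. Both EVI1 libraries lay above empty vector, and EVI1+18 lay 1.71-fold above EVI1-WT. The ratio to empty vector was 1.30 (1.18 to 1.42) with EVI1-WT and 2.21 (2.04 to 2.41) with EVI1+18, for a mean log2 ratio of 0.76. That mean ranked 141 of the 10406 genes, above 98.6% of them, and did not reach 2-fold. It is 0.37 from EVI1-WT alone and 1.15 from EVI1+18 alone. The tables do not separate the transcript of the cell from that of the vector.

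With a mean ratio of at least 2-fold as the call, 78 genes (0.750% of those described) were higher with both EVI1 forms and 103 (0.990%) were lower. At least 1.5-fold, 247 genes (2.37%) were higher and 263 (2.53%) lower. Past 2-fold in both EVI1 libraries at once, 50 genes (0.480%) were higher and 62 (0.596%) lower. The calls on the low side leaned on EVI1-WT: 34 of the 103 passed 2-fold in EVI1-WT only and 7 in EVI1+18 only, and EVI1-WT lay farther from empty vector in 79 of them. On the high side 9 of the 78 passed 2-fold in EVI1-WT only and 19 in EVI1+18 only, and EVI1+18 lay farther in 46. Without the EVI1+18 library, 177 genes were at least 2-fold lower and 73 higher. Without the EVI1-WT library, 87 were lower and 105 higher. From the deposited TPM values, 61 genes were called higher and 125 lower, so that the higher genes made up 32.8% of the calls in place of 43.1%. The median mean log2 ratio of all described genes was 0.00 from scaled counts and -0.09 from TPM.

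**Figure D1:**
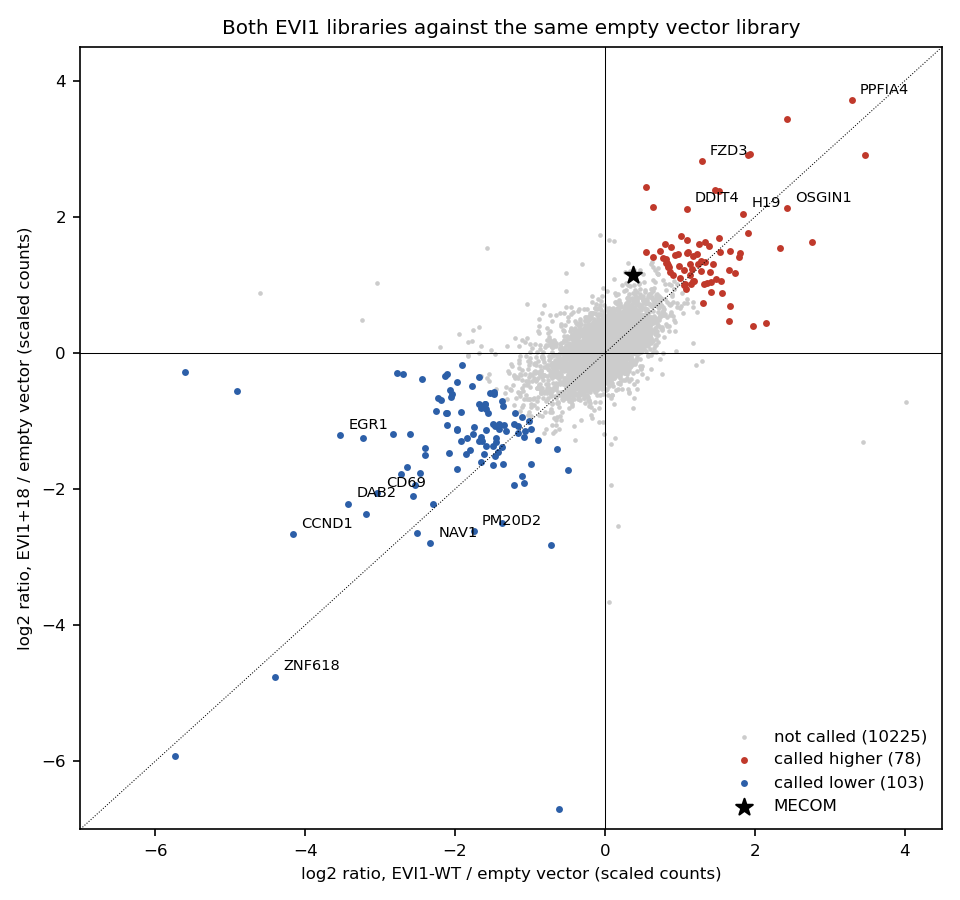
Log2 ratio of scaled counts for EVI1-WT (x axis) and EVI1+18 (y axis) to the same empty vector library, with 78 genes called higher in red, 103 called lower in blue, the other 10225 in grey, and a dotted line at equal ratios. MECOM (star) lies among the upper grey points, ZNF618 and CCND1 far out at the lower left and PPFIA4 at the upper right.

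Called genes had fewer counts than most. The median mean count was 112 over the genes called higher and 96.7 over those called lower, against 762 over all described genes. Under 100 mean counts lay 34 of the 78 and 53 of the 103, against 7.55% of all described genes. Both counting intervals left out 1 for 74 of the 78 and for 99 of the 103. These genes were called at 2-fold from the same counts, which makes such intervals likely beforehand, so this is no separate support for the calls. The EVI1 libraries lay less than 1.5-fold apart for 55 of the 78 higher genes and for 42 of the 103 lower genes. They lay at least 2-fold apart for 9 and 32, against 1.16% of all described genes. Several leading genes reached a mean of 50 counts only through the side where they were higher. PPFIA4, MIR210HG, INPP5D, ANKRD37, FZD3, SDC2, FHDC1 and LGALS12 had fewer than 50 counts in empty vector. ZNF618, CCND1, DAB2, FHL2, SAMD5 and AMIGO2 had fewer than 50 counts in both EVI1 libraries.

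The leading genes on the high side came from hypoxia, stress, signalling and surface functions. PPFIA4, a liprin scaffold gene, had 11, 109 and 166 counts, or 0.610, 5.97 and 8.02 CPM. Both EVI1 libraries stood well apart from empty vector, by 9.80-fold with EVI1-WT (5.26 to 20.2) and 13.2-fold with EVI1+18 (7.17 to 26.9). MIR210HG, the host transcript of the hypoxia microRNA miR-210, had 11, 60 and 137 counts, which was 5.39-fold (2.81 to 11.4) and 10.9-fold (5.89 to 22.3) higher. Both rest on 11 counts in the control library, and their intervals are correspondingly wide.

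The imprinted non-coding RNA H19 was the best counted of the leading transcripts after DDIT4. It had 743, 2696 and 3527 counts, or 41.2, 148 and 171 CPM. The EVI1 libraries lay only 1.15-fold apart, and both were far above the control, by 3.59-fold (3.31 to 3.90) and 4.14-fold (3.83 to 4.49). Of the 12 described imprinted genes H19 was the sole one past 2-fold. CDKN1C, an imprinted inhibitor of cyclin-dependent kinases, stood next with 10.0, 13.1 and 23.5 CPM.

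OSGIN1, a gene of the oxidative stress response, had 4.71, 25.4 and 20.6 CPM, and was 5.40-fold (4.27 to 6.88) and 4.37-fold (3.46 to 5.59) higher. SLC16A9, of the monocarboxylate transporter family, had 4.43, 22.4 and 13.0 CPM. Both were higher with EVI1-WT than with EVI1+18, as was IGSF10, of the immunoglobulin superfamily (9.86, 34.5 and 27.5 CPM). The reverse order held for FZD3, a WNT receptor with 1.05, 2.57 and 7.44 CPM, and for SDC2, a heparan sulfate proteoglycan with 1.22, 3.51 and 6.38 CPM. It also held for FHDC1, a formin that acts on actin and microtubules, with 2.11, 5.81 and 11.1 CPM. LGALS12, a galectin, had nearly equal levels in both EVI1 libraries, 6.85 and 7.69 CPM against 2.38 CPM in the control.

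**Figure D2:**
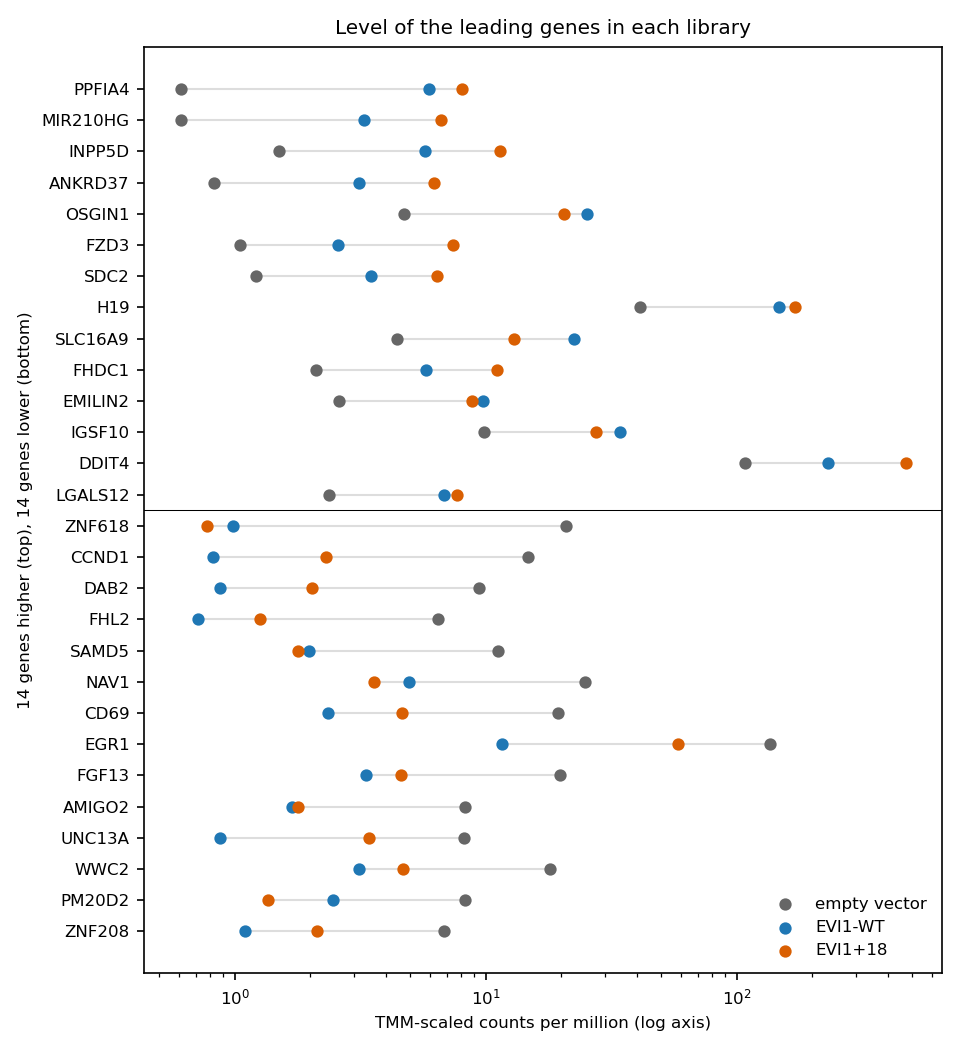
TMM-scaled CPM on a log axis for the 14 leading genes higher with both EVI1 forms (top) and the 14 leading lower genes (bottom), with 1 point for each library. Both EVI1 points lie on one side of the grey empty vector point in every row, far apart for EGR1 (11.7 and 58.4 CPM) and close together for AMIGO2 (1.70 and 1.79 CPM).

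All gene lists, above and below, were chosen with earlier results of these data known, so their directions are descriptive and no separate support. Over all described genes, 34.6% were higher in both EVI1 libraries and 32.1% lower. Past 2-fold were 0.750% higher and 0.990% lower, and past 1.5-fold 2.37% and 2.53%. Hypoxia response genes stood higher in both EVI1 libraries. Of 30 such genes outside glycolysis, 21 were described, 19 were higher in both EVI1 libraries and 1 was lower in both. Past 2-fold were 4 higher and 0 lower genes, past 1.5-fold 10 higher and 0 lower, and the median mean log2 ratio was 0.41 against 0.00 over all described genes. The summed level of the list was 880, 1259 and 1637 CPM, lowest in empty vector and highest in EVI1+18. PPFIA4, ANKRD37 and DDIT4 were put on this list with earlier results of these data known, so they add nothing to its direction. The counts, median and sums above still include them, and the 4 genes past 2-fold are these and P4HA1. PPFIA4 and ANKRD37, with 11 and 15 counts in empty vector, reached a mean of 50 counts only through the EVI1 libraries. DDIT4 alone made up 108, 231 and 472 CPM of the summed level.

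DDIT4, an inhibitor of mTORC1 signalling that is induced by hypoxia and other stresses, had 1954, 4211 and 9758 counts, or 108, 231 and 472 CPM. EVI1+18 was the highest, and the ratios to empty vector were 2.13 (2.02 to 2.25) and 4.36 (4.15 to 4.58). ANKRD37, a small ankyrin repeat protein and a known target of hypoxia-inducible factor, had 15, 57 and 129 counts, which was 3.76-fold (2.10 to 7.14) and 7.50-fold (4.38 to 13.8) higher. P4HA1, a prolyl hydroxylase of collagen, had 47.2, 93.2 and 115 CPM and was 1.98-fold and 2.44-fold higher. Below the 2-fold mark followed the mitophagy receptors BNIP3L (45.9, 84.4 and 91.5 CPM) and BNIP3 (53.4, 94.1 and 101 CPM). PDK1, a kinase that inhibits pyruvate dehydrogenase, had 23.8, 40.6 and 49.9 CPM. VEGFA, the vascular growth factor, had 70.7, 100.4 and 157 CPM, with more of its excess in EVI1+18. JMJD6 was the member lower in both, at a mean log2 ratio of -0.13.

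Glycolysis enzymes, many of them targets of the same factor, showed a smaller shift. All 20 were described, 16 were higher in both EVI1 libraries and 2 lower, and the median mean log2 ratio was 0.21. The median was 0.09 with EVI1-WT and 0.34 with EVI1+18. From TPM 12 were higher in both and 4 lower, with a median mean log2 ratio of 0.12. PFKFB4, which sets the level of an activator of glycolysis, had 27.1, 51.8 and 73.8 CPM and was 1.91-fold (1.71 to 2.14) and 2.72-fold (2.46 to 3.02) higher. ENO2, an enolase, had 8.03, 14.4 and 19.3 CPM. These were the 2 members past 2-fold, and ALDOC, an aldolase, followed at 67.5, 84.9 and 134 CPM. GAPDH was 1.19-fold and 1.38-fold higher and LDHA 1.26-fold and 1.38-fold higher.

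Hypoxia-inducible factors bind DNA at a short core that contains ACGTG. The 250 bases before the listed start are printed for the 4 listed hypoxia genes past 2-fold and for MIR210HG, which is not on the list and was added as a leading gene known from hypoxia. MIR210HG was added with its match known, and all 5 windows hold the core. The sequences are RefSeq promoter windows of GRCh38.p14, a later build than the hg19 of the deposited tables, written 5′ to 3′ on the strand of the gene. Capitals mark ACGTG on either strand, and CACGTG holds it on both.
PPFIA4: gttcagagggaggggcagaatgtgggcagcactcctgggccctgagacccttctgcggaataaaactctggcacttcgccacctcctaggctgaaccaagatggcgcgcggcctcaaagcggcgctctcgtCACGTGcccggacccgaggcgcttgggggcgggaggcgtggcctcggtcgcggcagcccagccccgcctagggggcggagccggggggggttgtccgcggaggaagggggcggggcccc
ANKRD37: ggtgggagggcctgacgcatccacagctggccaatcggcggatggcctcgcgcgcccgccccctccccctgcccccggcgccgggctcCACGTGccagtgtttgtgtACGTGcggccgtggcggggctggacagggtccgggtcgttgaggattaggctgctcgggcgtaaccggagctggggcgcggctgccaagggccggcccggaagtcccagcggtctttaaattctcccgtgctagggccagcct
MIR210HG: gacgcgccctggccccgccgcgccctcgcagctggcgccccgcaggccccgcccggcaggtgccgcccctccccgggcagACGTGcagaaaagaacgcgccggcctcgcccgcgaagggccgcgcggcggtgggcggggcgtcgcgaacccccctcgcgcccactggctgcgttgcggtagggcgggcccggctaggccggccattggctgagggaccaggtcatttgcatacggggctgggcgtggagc
DDIT4: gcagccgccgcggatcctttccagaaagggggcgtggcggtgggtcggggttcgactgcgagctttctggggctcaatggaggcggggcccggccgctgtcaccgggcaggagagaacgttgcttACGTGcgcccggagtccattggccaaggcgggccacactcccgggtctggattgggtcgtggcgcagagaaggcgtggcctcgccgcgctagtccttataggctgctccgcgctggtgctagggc
P4HA1: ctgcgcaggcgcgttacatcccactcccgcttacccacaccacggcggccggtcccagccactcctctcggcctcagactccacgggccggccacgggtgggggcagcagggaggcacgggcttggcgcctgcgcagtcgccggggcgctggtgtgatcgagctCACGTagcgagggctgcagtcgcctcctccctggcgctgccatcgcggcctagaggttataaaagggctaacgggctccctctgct
They lie at chr1:203026241-203026490 on the plus strand, chr4:185396591-185396840 on the plus strand, chr11:568458-568707 on the minus strand, chr10:72273674-72273923 on the plus strand and chr10:73096867-73097116 on the minus strand. The matches begin 86 to 170 bases before the start of each gene, with 2 stretches in ANKRD37 and 1 in each of the others.

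The motif ACGTG was more common among hypoxia and glycolysis genes than among all described genes. It stood in 14 of 18 hypoxia response genes with a listed promoter (77.8%) and in 12 of 19 glycolysis enzymes (63.2%), counting a gene when any of its listed windows held it on either strand. The same count gave 2510 of 8494 described genes (29.6%), and 18.5% of all 35116 single windows held it. Among called genes it stood in 22 of 61 higher genes (36.1%) and in 17 of 86 lower genes (19.8%). GATAAG, the core of a GATA site, stood in 6 of 61 higher and 5 of 86 lower genes against 4.83% of described genes. GAAGATGAG, a motif reported for the second zinc finger domain of EVI1, stood in 0 of 61 and 1 of 86 against 0.283%. All motifs were searched on both strands. A match describes letters in the window and shows no binding. The hypoxia and glycolysis lists hold known targets of hypoxia-inducible factors, so a high share of ACGTG in them was likely beforehand. Any part of these factors in the levels was not tested.

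Genes of the oxidative stress response stood higher as well, and more so with EVI1-WT. Of 25 described members 19 were higher in both EVI1 libraries and 4 lower, with a median mean log2 ratio of 0.33. From TPM 17 were higher in both and 7 lower, with a median of 0.24. Besides OSGIN1, the aldo-keto reductases AKR1C1 (92.6, 229 and 154 CPM) and AKR1C2 (27.1, 72.5 and 50.4 CPM) passed 2-fold. They are near-identical copies and uncertain one by one, and the counts of AKR1C1, AKR1C2 and AKR1C3 summed were 2.03-fold higher in the mean. NQO1, a quinone reductase, had 99.4, 182 and 147 CPM. The ferritin chains FTL and FTH1, which store iron, had 2565, 4227 and 4049 CPM and 1396, 2207 and 2031 CPM. GCLC, the catalytic subunit of glutathione synthesis, had 19.3, 28.3 and 26.7 CPM, and SLC7A11, the cystine transporter, 41.1, 61.5 and 54.7 CPM. The genes of the regulating pair, NFE2L2 and KEAP1, were not higher in either EVI1 library.

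Erythroid genes were moderately higher with both forms. Of 25 described membrane and red cell genes 17 were higher in both EVI1 libraries and 3 lower, with a median mean log2 ratio of 0.24. Past 1.5-fold were 6 higher and 1 lower gene. From TPM 14 of the 25 were higher in both and 7 lower, with a median of 0.15. GYPB, a glycophorin of the red cell surface, passed 2-fold at 21.9, 55.3 and 55.6 CPM, 2.52-fold (2.24 to 2.84) and 2.53-fold (2.26 to 2.85) higher. It shares reads with near-identical copies and is uncertain. RHCE, a blood group gene with the near copy RHD, had 9.09, 18.3 and 14.7 CPM.

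Heme synthesis and globins showed the same direction in most members. Of 11 heme synthesis genes 9 were higher in both libraries and 2 lower, with a median of 0.37. ALAS2, the erythroid first enzyme of the pathway, had 38.4, 61.3 and 52.5 CPM, and PPOX, near its end, was 1.51-fold and 1.52-fold higher. Of 9 described globin genes 6 were higher in both and 1 lower, with a median of 0.35. No globin passed 2-fold. The fetal globin HBG2 had 5156, 7261 and 7577 CPM. The embryonic globin HBE1 had 1821, 3525 and 1864 CPM, so that its excess lay in EVI1-WT, 1.94-fold (1.91 to 1.96), and EVI1+18 differed from empty vector by 1.02-fold (1.01 to 1.04). HBBP1, a pseudogene of the beta globin cluster, was lower in both at 23.2, 13.7 and 17.0 CPM. TFRC, the receptor for iron-loaded transferrin, had 1252, 1700 and 1735 CPM.

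Stem cell and erythroid transcription factors differed little. Of 22 described, 6 were higher in both EVI1 libraries and 13 lower, with a median mean log2 ratio of -0.12 and none past 2-fold. RUNX1, a core factor of blood stem cells, had 58.5, 94.1 and 83.6 CPM and was the one past 1.5-fold. GATA2, a stem cell factor reported as an EVI1 target, had 234, 163 and 172 CPM and was 1.44-fold (1.37 to 1.51) and 1.36-fold (1.30 to 1.42) lower. GATA1, the master factor of red cells, had 210, 189 and 204 CPM.

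Myeloid genes with measurable counts were mostly higher, while the defining granulocyte proteins were at or near 0. Of 33 granulocyte and monocyte genes 9 were described, 8 of them higher in both EVI1 libraries and 1 lower, with a median of 0.38. ELANE and S100A8 had 0 counts in every library, and MPO 0, 0 and 3. SPI1, the myeloid master factor PU.1, had 271, 428 and 745 counts, which was 1.56-fold (1.34 to 1.82) and 2.40-fold (2.08 to 2.77) higher. CYBB, a subunit of the phagocyte oxidase, had 63, 87 and 147 counts, and its interval with EVI1-WT held 1 (0.976 to 1.92). LYZ, lysozyme, had 162, 185 and 288 counts.

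Of 24 megakaryocyte and platelet genes 8 were described, 1 higher in both EVI1 libraries and 5 lower, with a median of -0.20. GP6, the platelet collagen receptor, was equally low in both at 15.2, 5.53 and 5.32 CPM, 2.75-fold (2.19 to 3.50) and 2.87-fold (2.29 to 3.61) below empty vector. TUBB1, the platelet tubulin, had 13.1, 9.64 and 7.64 CPM.

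Genes of signalling in blood cells appeared on both sides, and those described here were picked after their values were seen. INPP5D, the phosphatase SHIP1 that removes a lipid product of PI3-kinase, had 27, 105 and 235 counts, and was 3.84-fold (2.50 to 6.11) and 7.59-fold (5.09 to 11.8) higher. WAS, the actin regulator lost in Wiskott-Aldrich syndrome, had 64, 138 and 233 counts, and PIK3AP1, an adaptor for PI3-kinase, 34, 82 and 119. PLCB2, a phospholipase C, RASGRP4, a RAS activator, and DAPP1, an adaptor that binds PI3-kinase lipids, were 2.43-fold, 2.42-fold and 2.35-fold higher in the mean.

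On the low side CD69, a lectin of early lymphocyte activation, had 349, 43 and 96 counts, which was 8.21-fold (5.97 to 11.6) and 4.17-fold (3.32 to 5.28) lower. PTPRC, the CD45 phosphatase of blood cells, had 31.5, 11.8 and 14.5 CPM, and LCP2, the adaptor SLP-76, 24.5, 9.64 and 11.7 CPM. CD3D, a chain of the T cell receptor complex, had 179, 59 and 73 counts. It was the sole one described of 14 lymphoid markers. CD3E had 5, 0 and 0 counts, CD2 0, 2 and 0, and MS4A1 0 in all. The sum of the 14 was 10.5, 4.0 and 4.4 CPM, and its part in the lower genes of this group was not tested.

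Cyclin D1 and p21 led the low side among cell cycle genes. CCND1, which drives entry into the cycle, had 265, 15 and 48 counts, or 14.7, 0.822 and 2.32 CPM. Both EVI1 libraries were far below the control, by 17.9-fold (10.6 to 32.4) and 6.33-fold (4.64 to 8.80), and EVI1-WT was the lower of them. CDKN1A, the p21 inhibitor, had 99, 21 and 63 counts, with most of its deficit in EVI1-WT at 4.77-fold (2.96 to 8.04) against 1.80-fold (1.30 to 2.51). Of 19 D cyclins, kinases and inhibitors, these 2 included, 6 were higher and 6 lower in both EVI1 libraries. Those counts were near the shares of all described genes (34.6% and 32.1%). The median of the 19 was 0.01, and it was below 0 from TPM (-0.08) and from library totals (-0.02). Of 24 mitosis genes 3 were higher and 6 lower, and 0 higher and 16 lower from TPM, with a median of -0.03 (-0.12 from TPM). None of them passed 1.5-fold, and none of 24 replication genes did. TOP2A, a topoisomerase of dividing cells, had 744, 741 and 638 CPM.

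CCND1 and CDKN1A are also among 23 genes that were listed as reported EVI1 targets. Of these 11 were described, 3 higher in both EVI1 libraries and 5 lower, with a median of -0.14. ALDH1A1, an aldehyde dehydrogenase of stem cells, had 29.9, 93.8 and 41.4 CPM, 3.14-fold (2.85 to 3.47) higher with EVI1-WT and 1.39-fold (1.24 to 1.55) with EVI1+18. FOS had 56, 6 and 90 counts and so lay on opposite sides. The 20 described partners and corepressors of EVI1 had a median of 0.00, with none past 1.5-fold. KDM1A, a histone demethylase, had 302, 359 and 366 CPM.

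EGR1, an early response transcription factor, had the most counts of the leading lower genes. It had 2441, 213 and 1209 counts, or 135, 11.7 and 58.4 CPM. Both EVI1 libraries were lower, but to very different degrees, 11.6-fold (10.1 to 13.4) with EVI1-WT and 2.31-fold (2.16 to 2.48) with EVI1+18. EGR1 is a classic target of serum response factor, which binds the CArG box, a run of CC, any 6 of A or T, and GG. The 250 bases before its start are shown because 2 such boxes, in capitals, stand there, 83 and 105 bases before the start, at chr5:138465229-138465478 on the plus strand of GRCh38.p14 (RefSeq).
EGR1: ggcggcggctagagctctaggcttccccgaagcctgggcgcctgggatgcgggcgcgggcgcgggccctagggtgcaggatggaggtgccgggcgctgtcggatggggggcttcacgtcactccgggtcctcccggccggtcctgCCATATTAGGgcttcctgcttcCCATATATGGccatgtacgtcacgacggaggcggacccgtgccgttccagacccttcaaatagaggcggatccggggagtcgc
Of the 86 called lower genes with a listed promoter EGR1 and FHL2 held a CArG box, and 0 of the 61 higher ones did, against 1.33% of described genes and 1.16% of all windows.

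The other immediate-early genes went both ways. Of 16 described, 5 were higher in both EVI1 libraries and 6 lower, near the shares of all described genes (34.6% and 32.1%). The median was -0.16, and EGR1 was the sole one past 2-fold. ATF3, also a stress gene, had 8.70, 11.9 and 17.5 CPM, and JUN 24.7, 33.2 and 35.6 CPM. Feedback genes of the MAPK pathway were slightly lower, 6 of 8 in both libraries, with a median of -0.29. None of the 8 passed 1.5-fold. SPRY4, an inhibitor of the pathway, had 27.6, 18.4 and 18.5 CPM, and ETV5, a target factor, 29.0, 20.2 and 18.6 CPM. Their EVI1 libraries lay close together, unlike those of EGR1.

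Other leading lower genes were low in both EVI1 libraries, ZNF618 the most of the 14. ZNF618, a zinc finger gene, had 378, 18 and 16 counts, or 20.9, 0.986 and 0.773 CPM, and was 21.2-fold (13.3 to 36.2) and 27.1-fold (16.5 to 47.9) lower. DAB2, an adaptor of endocytosis, had 170, 16 and 42 counts, and FHL2, a LIM domain coregulator, 117, 13 and 26. NAV1, a microtubule-binding neuron navigator, had 24.8, 4.93 and 3.58 CPM. SAMD5, which carries a SAM domain, had 11.2, 1.97 and 1.79 CPM. AMIGO2, a leucine-rich adhesion protein, had 8.31, 1.70 and 1.79 CPM, and WWC2, a scaffold of the Hippo pathway, 18.0, 3.12 and 4.69 CPM. UNC13A, known from synaptic vesicle release, was an exception, with 148, 16 and 71 counts and thus 3.92-fold apart between the EVI1 libraries.

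Several growth factor genes, binding proteins and receptors were among the lower calls, picked here after their values were seen, so their common direction is set by the choice. EREG, a ligand of the EGF receptor, had 141, 27 and 57 counts. FGF13, a fibroblast growth factor homologue that stays in the cell, had 356, 61 and 95 counts and was 5.90-fold (4.49 to 7.88) and 4.30-fold (3.42 to 5.44) lower, and FGF5 had 113, 43 and 63. These were low with both forms. IGF1 (260, 61 and 162 counts), IGFBP4, which binds it (1089, 265 and 801), and LIFR, the receptor of leukaemia inhibitory factor (404, 119 and 330), were lower mainly with EVI1-WT, by 4.31-fold, 4.16-fold and 3.43-fold against 1.84-fold, 1.56-fold and 1.40-fold. The peptide receptors APLNR and KISS1R were 3.73-fold and 2.72-fold lower in the mean.

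Matrix, guidance and surface genes, chosen in the same manner, went both ways. RELN, a secreted guidance protein, had 4576, 9737 and 10568 counts, nearly the same ratio in both EVI1 libraries at 2.10-fold (2.03 to 2.18) and 2.01-fold (1.95 to 2.09). COL18A1, a basement membrane collagen, had 60.8, 134 and 151 CPM, and ROBO2, a SLIT receptor, 8.20, 22.3 and 20.3 CPM. SPARC, a matrix protein, was lower at 5.37, 1.37 and 1.64 CPM, and PVR, a ligand of immune receptors, at 12.1, 2.90 and 8.31 CPM. Called channels and transporters stood on both sides too. AQP1, the water channel of red cells, had 10.5, 27.4 and 31.1 CPM, and SLC7A8, an amino acid transporter, 45.7, 128 and 97.0 CPM. SCN9A, a sodium channel, was lower at 16.7, 10.8 and 6.28 CPM. ZNF521, a zinc finger factor of blood progenitors, was higher at 6.87, 16.2 and 18.8 CPM. HES1, a target of Notch, was equally low in both EVI1 libraries at 8.09, 3.83 and 3.43 CPM.

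Cholesterol synthesis genes were lower in both EVI1 libraries, and mainly with EVI1-WT. All 25 were described, 21 were lower in both and 0 higher in both, and the median mean log2 ratio was -0.45. None passed 2-fold and 9 passed 1.5-fold. The median was -0.68 with EVI1-WT alone and -0.17 with EVI1+18 alone. HMGCS1, an early enzyme of the pathway, had 263, 124 and 189 CPM and was 2.12-fold (2.02 to 2.23) and 1.39-fold (1.33 to 1.45) lower. MVK, mevalonate kinase, had 36.3, 16.3 and 28.3 CPM, and LSS, which closes the sterol rings, 208, 102 and 153 CPM. INSIG1, a sterol sensor protein, lay on opposite sides at 327, 114 and 336 CPM.

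Replication-dependent histone genes gave the lowest median of the lists with at least 5 described members, -0.72. Of 37 such genes 16 were described, 15 were lower in both EVI1 libraries and 0 higher in both, and 13 passed 1.5-fold. The median was -0.93 with EVI1-WT alone and -0.46 with EVI1+18 alone. HIST1H1C, a linker histone, had 415, 195 and 282 CPM, 2.13-fold (2.05 to 2.22) and 1.47-fold (1.42 to 1.52) lower. HIST1H2AD, an H2A gene, had 10.2, 4.98 and 5.41 CPM. HIST2H4A and HIST2H4B, identical copies that share reads, passed 2-fold and were 2.26-fold lower in the mean when summed. Most mRNAs of this class are known to end in a stem-loop and not in a poly(A) tail. The replication genes, also active in S phase, had a median of 0.06 (-0.03 from TPM). Any part of the share of cells in S phase, or of the missing poly(A) tail, in the lower histone levels was not tested.

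**Figure D3:**
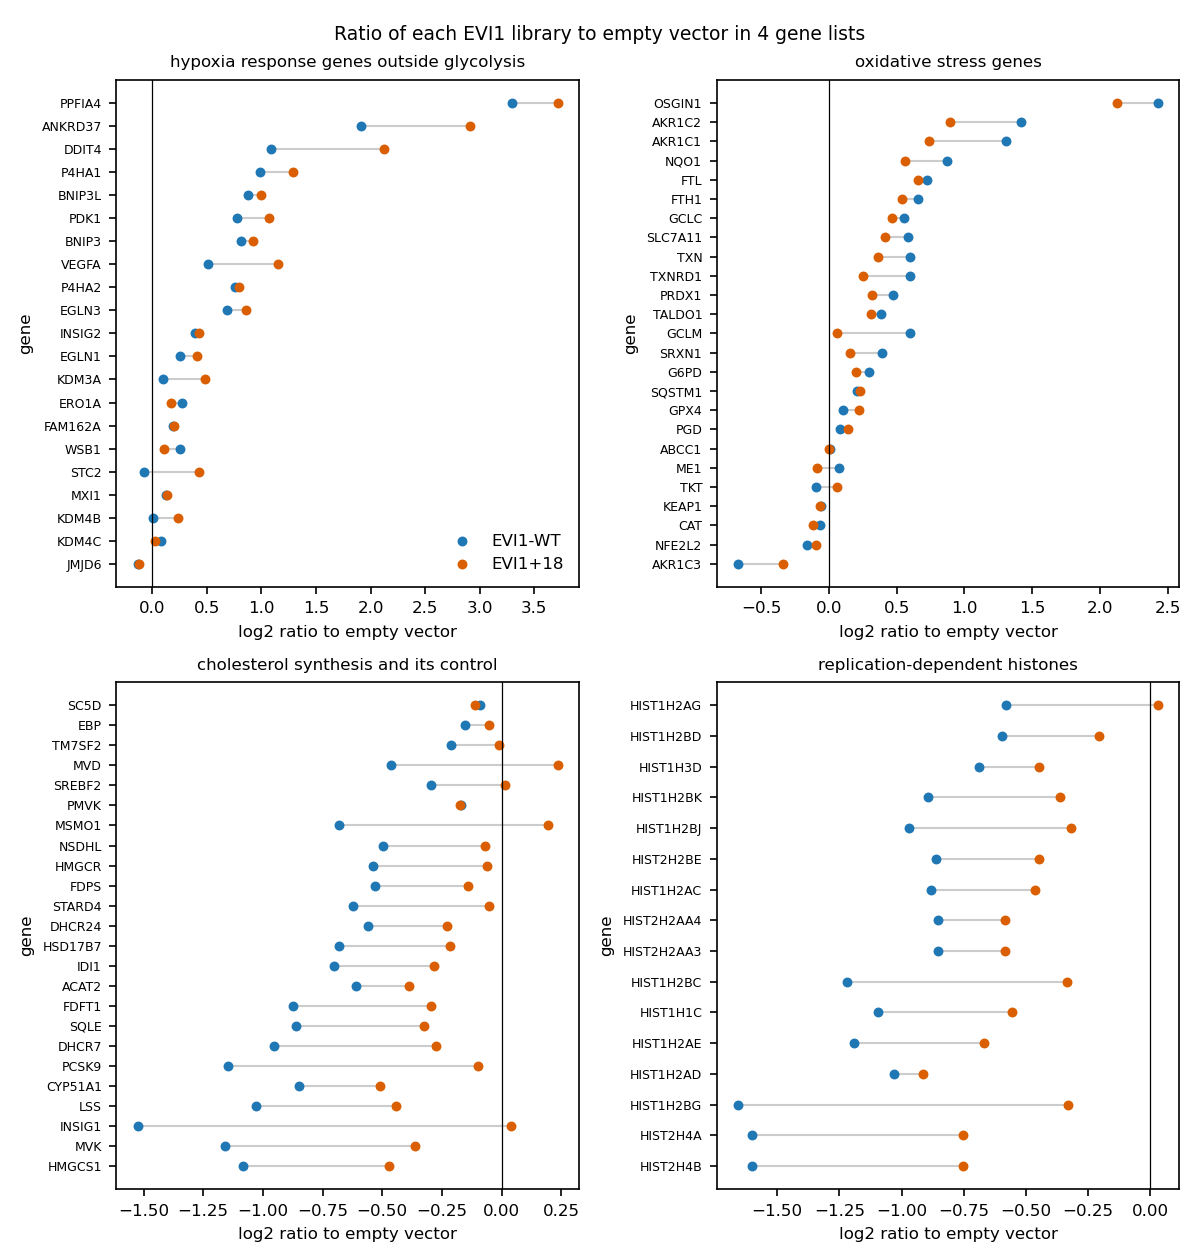
Log2 ratio to empty vector of described members of 4 gene lists (1 cholesterol gene is not drawn), with EVI1-WT in blue and EVI1+18 in orange. Most hypoxia and oxidative stress genes lie right of 0 for both libraries, while in the cholesterol and histone lists the EVI1-WT points lie farther left, with medians of -0.68 and -0.93 against -0.17 and -0.46.

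Cancer-testis antigens, germ line proteins expressed in some tumours, included several of the lower genes. Of 18 described 2 were higher in both EVI1 libraries and 11 lower, with a median of -0.14 and 3 past 2-fold. Over all described genes 34.6% were higher, 32.1% lower and 0.990% past 2-fold lower. MAGEC2 had 448, 125 and 183 counts, 3.63-fold (2.97 to 4.46) and 2.81-fold (2.36 to 3.35) lower, and MAGEC1 had 586, 276 and 191. MAGEA9B had 159, 0 and 0 counts, at least 53.6-fold and 60.7-fold lower against a floor of 3 counts per library. It shares reads with its copy MAGEA9, and the sum of both was 255, 100 and 162 counts, 2.16-fold lower in the mean. Of the 101 called lower genes with a chromosome in RefSeq GRCh38.p14, 12 lay on the X chromosome, where 359 of 10303 described genes lie (3.48%), and 2 of the 78 higher genes did. Besides MAGEC1, MAGEC2 and MAGEA9B these were CT55, VCX3A, SSX2B, PASD1, FGF13, ZNF711, GYG2, ARHGAP4 and GLUD2. VCX3A, SSX2B and GLUD2 also share reads with copies, and summed with them they were 2.34-fold, 3.03-fold and 1.20-fold lower in the mean. The median mean log2 ratio over all X genes was -0.02.

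Among the remaining lists, unfolded protein and amino acid stress genes were higher in 17 of 28 members and lower in 2, with a median of 0.17, and from TPM in 13 and 8, with a median of 0.07. CHAC1, which degrades glutathione, led them at 5.04, 8.27 and 12.0 CPM. WNT pathway genes had a median of 0.11, with 9 higher, 5 lower and FZD3 as the sole one past 2-fold. Cytosolic ribosomal protein genes were higher in 38 of 42 by a median of 0.11, and in 20 of 42, with 6 lower, by a median of 0.03 from TPM. RAS family genes had a median of -0.06, actin and cytoskeleton regulators -0.04 and TGF-beta response genes -0.10. Adhesion, imprinted and interferon response genes had medians of 0.02, 0.06 and 0.02 that were below 0 from TPM. Of 13 packaging or stromal markers 2 were described, on opposite sides. VIM, vimentin, was lower at 522, 279 and 364 CPM, and FN1, fibronectin, was higher at 46.9, 64.7 and 49.1 CPM, mainly with EVI1-WT. COL1A2, a collagen gene that did not reach a mean of 50 counts, was lower in both EVI1 libraries at 93, 2 and 20 counts.

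Some called genes had the same ratio with both forms and others belonged almost wholly to one. Leaving out uncharacterised loci and genes that share reads, the 6 called genes whose EVI1 libraries differed least were TMPRSS4, IL16, DNAJC12, PLEKHH1, RNASE1 and OSBPL6, each within 1.04-fold. DNAJC12, a co-chaperone, had 598, 225 and 249 counts, 2.69-fold and 2.75-fold lower. OSBPL6, an oxysterol-binding protein, had 614, 1288 and 1405 counts and was 2.03-fold higher in the mean. The 6 that differed most, with the same genes left out, were all on the low side. MRAS, a RAS-related GTPase, had 96, 2 and 91 counts. With EVI1+18 its ratio of 1.21 below empty vector had an interval that held 1 (0.898 to 1.63), so the call rests on EVI1-WT. CTDSPL, a phosphatase (244, 36 and 228 counts), IL4R, the interleukin 4 receptor (90, 14 and 83), ZNF711, a zinc finger gene (194, 36 and 171), and EGR1 were also lower mainly with EVI1-WT. ARHGAP15, which turns off RAC, was the reverse at 86, 53 and 14 counts. Apart from the called genes, 31 genes lay on opposite sides of empty vector with at least 1 library past 2-fold.

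Of the called genes 22 share reads with near-identical copies, read-through transcripts or overlapping genes and are uncertain. Summed with their partners, 9 remained at least 2-fold from empty vector in the mean and 11 came to less than 1.5-fold. TICAM2, FAM133DP and PHOSPHO2-KLHL23 were among the higher genes and COMMD3-BMI1 and TVP23C-CDRT4 among the lower genes whose sums were under 1.5-fold. Just inside the 2-fold mark lay CNN1 (115, 246 and 253 counts) and C3orf52 (106, 53 and 61), and just outside ARG2 (414, 797 and 993) and RAVER2 (319, 130 and 228). At the mean of 50 counts HECW2 (75, 34 and 41) was just inside and RAB3A (26, 40 and 83) just outside.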

How the data were processed

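RNA of K562 cells was sequenced from 3 libraries, 1 for each of 3 constructs: empty vector, EVI1-WT and EVI1+18. RNA was extracted with RNeasy columns and prepared with the TruSeq RNA kit, version 2, per the labels' protocols. Per the file headers, each deposited table gives every gene's expected count, TPM and FPKM, and names genes by symbol with their RefSeq transcripts. The expected count shares reads that fit several transcripts, so 3.02% to 3.09% of the deposited values differed from whole numbers by over 0.001. TPM, in which the authors corrected for effective length and set a common total, served as an alternative, and the deposited FPKM was not used. Per the file headers, other columns hold transcript lengths, used only for description. The submitters' processing notes name the build hg19 and the tool bcl2fastq. The sources used here do not give aligner, counting tool, annotation release or strand use. Counts of copies, overlapping and antisense genes are therefore uncertain.

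Expected counts were rounded and scaled with TMM factors (1.01, 0.990 and 0.996) from edgeR 4.0.16 under R 4.3.3, used only for scaling. Ratios to empty vector, their mean log2 value over both EVI1 libraries and exact 95% intervals (Clopper-Pearson, conditional on the sum of both counts, scipy 1.17.1, Python 3.11.15) were computed for genes averaging 50 counts or more. The script was tested on simulated counts. Without molecular identifiers, reads cannot be taken as independent molecules. A count of 0 was set to a floor of 3 counts, and the ratio is then a bound. Depth limits genes near 50 counts most.

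A call is a mean ratio of at least 2-fold with both libraries on one side. Named are MECOM, the 14 higher and 14 lower genes of largest mean ratio whose intervals both leave out 1 (without uncharacterised loci, antisense, small RNA, read-through and copied genes), the 6 called genes most alike and the 6 least alike between EVI1 libraries (with the same genes left out), up to 4 members past 1.5-fold of each of 32 gene lists or the 2 most abundant where none passed, and the genes beside each threshold. Further list members and the role groups were chosen after their values were seen. The members and lists were chosen with earlier results of these data known. Some genes and lists under these rules are not reported here. Promoter windows and chromosomes are from RefSeq tables of GRCh38.p14, and 8494 of the 10406 genes matched a promoter by symbol. Alternatives covered scaling, unit, the way the EVI1 libraries were combined, leaving out either, the count filter, the fold and the treatment of 0.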

Additional observations from a re-analysis of the deposited data

How the results depend on the processing

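Scaling by library total, relative log expression or upper quartile, the deposited TPM values, the mean of scaled counts and 0.5 added to every count gave 61 to 83 genes higher and 91 to 125 lower, within 1.5 times of 78 and 103. With a mean of at least 10 counts 217 were higher and 314 lower of 11943 genes, and with at least 100 counts 44 and 50 of 9620. With no filter 854 were higher and 874 lower of 15686 genes, of which 10898 were members. With each EVI1 library past 2-fold the numbers were 50 and 62, and at 1.5-fold 247 and 263. Leaving out one EVI1 library gave 73 to 105 higher and 87 to 177 lower genes and a log2 ratio of MECOM of 0.37 to 1.15. Of the main calls, 69 higher and 69 lower genes were kept without EVI1-WT, and 59 and 96 without EVI1+18.

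Of the 101 named genes, 0 of those past 1.5-fold changed sign under these settings. Those genes had both EVI1 libraries on the same side, so leaving out either could not change their sign. Scaling and TPM moved the median of all described genes no further than -0.09, so a change of sign was hardly possible there either. Medians near 0 did so from TPM for the lists of D cyclins, adhesion, imprinted, interferon response, replication and EVI1 partner genes. Summed over copies, an alternative chosen after seeing the data, the mean log2 ratio changed sign for TICAM2 (-0.12), FAM133DP (-0.0033), PHOSPHO2-KLHL23 (-0.047) and PGBD3 (-0.014). No paired analysis was possible because each construct has 1 library. With 1 library per construct, a difference between cultures and an effect of a construct cannot be told apart.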
